A study of Mus musculus with 18 samples.

Results

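Transcripts of the uncoupling proteins Ucp1, Ucp2 and Ucp3 were measured by RNA-seq in brown and white adipose tissue of mice with and without the long noncoding RNA gene Gm15551. The members were the rows of the count table whose gene symbol was Ucp1, Ucp2 or Ucp3. This gave 3 of 54347 rows, and all 3 were among the 18728 genes that passed the filter on low counts. Polyadenylated RNA came from interscapular brown (iBAT), inguinal white (iWAT) and epididymal white adipose tissue (eWAT) of 6 mice, each of which gave 1 library per tissue. The 3 wild type (wt) and 3 knockout (ko) animals were litter mates of 12 weeks of age on a C57BL/6N background and a chow diet. In the knockout, CRISPR/Cas9 had removed a stretch that holds exon 1 of Gm15551 from the genome. The 18 libraries form 6 groups of 3, and no drug or cold treatment is named for them.

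Uncoupling proteins are carriers of the inner mitochondrial membrane and belong to the SLC25 family. Ucp1 lets protons return to the matrix without making ATP, which turns the energy of fat oxidation into heat, and it is the defining protein of brown and beige adipocytes, where noradrenaline and free fatty acids switch it on. Ucp2 is made in many tissues and is abundant in macrophages and lymphoid cells, whereas Ucp3 is best known from skeletal muscle, brown fat and heart, where it follows the supply of fatty acids.

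Ucp1 (ENSMUSG00000031710.4) lies on the plus strand at chr8:83290352-83298452 in GRCm38 and has 1 annotated transcript. Ucp3 (ENSMUSG00000032942.14, chr7:100472990-100486432) and Ucp2 (ENSMUSG00000033685.13, chr7:100493337-100502020) are neighbours on the plus strand of chromosome 7, with 6904 bp between the end of Ucp3 and the start of Ucp2. Ucp3 has 4 annotated transcripts and Ucp2 has 11. The 250 bases before the RefSeq start of each gene (GRCm38.p6, plus strand, 5′ to 3′) are shown because the genes had different tissue patterns. They cover chr8:83290098-83290347 for Ucp1, chr7:100493108-100493357 for Ucp2 and chr7:100472741-100472990 for Ucp3. Capitals mark matches to the motifs listed after the sequences.
Ucp1: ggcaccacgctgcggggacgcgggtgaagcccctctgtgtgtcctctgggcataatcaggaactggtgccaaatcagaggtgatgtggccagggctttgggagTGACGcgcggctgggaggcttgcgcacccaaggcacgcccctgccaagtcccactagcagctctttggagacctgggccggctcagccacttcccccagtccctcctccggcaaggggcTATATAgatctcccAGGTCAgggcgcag
Ucp2: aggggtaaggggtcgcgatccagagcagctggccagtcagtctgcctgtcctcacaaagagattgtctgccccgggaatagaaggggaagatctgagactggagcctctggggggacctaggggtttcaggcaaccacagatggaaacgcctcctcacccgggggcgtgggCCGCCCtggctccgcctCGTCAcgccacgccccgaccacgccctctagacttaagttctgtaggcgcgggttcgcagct
Ucp3: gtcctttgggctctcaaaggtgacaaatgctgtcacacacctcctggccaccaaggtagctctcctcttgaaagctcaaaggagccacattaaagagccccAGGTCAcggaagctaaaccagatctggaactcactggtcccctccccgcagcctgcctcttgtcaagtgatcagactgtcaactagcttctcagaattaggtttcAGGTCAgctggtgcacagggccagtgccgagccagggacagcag

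The motifs were searched by exact letters on both strands, and no match overlapped another. TGACG, a half-site of the cAMP response element, was found once before Ucp1 and once, on the minus strand, before Ucp2, and 17.8% of 32851 RefSeq promoter windows of the same length held it. AGGTCA, a half-site of nuclear receptors, matched once before Ucp1 and at 2 places before Ucp3, against 14.0% of all windows with a match. TATATA, as in a TATA element, was found 28 bases before the start of Ucp1 and in 5.25% of windows. The GC box GGGCGG was found before Ucp2 on the minus strand and in 32.7% of windows, and CCAAT, which 33.8% of windows held, was found before none of the 3 genes. The Ucp1 and Ucp2 windows were rich in G and C, at 64.8% and 63.6%, and held 12 and 16 CpG, while the Ucp3 window had 54.8% and 3 CpG. The median window had 52.4% and 6 CpG.

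Total estimated counts were 14997901 to 34389586 per library, and levels are given as CPM, counts relative to the library total after TMM scaling. Genes of the mitochondrial genome took 22.9% to 27.0% of the counts in iBAT and 3.77% to 9.64% in the white tissues. Gm15551 held 40 to 316 counts in the 9 wild type libraries and 0 to 4 in the 9 knockout libraries, as the labels say. The brown adipocyte genes summed to 7101 to 10948 CPM in iBAT, 98.6 to 535 CPM in iWAT and 50.9 to 86.9 CPM in eWAT, so the tissue labels held. Among the white libraries, 4 carried RNA of other tissues. The 10 lymphocyte and lymph node markers summed to 1045 CPM in iWAT wt 3 and 441 CPM in iWAT ko 2, against 9.48 to 27.0 CPM in the other iWAT libraries. The 12 skeletal muscle markers summed to 4866 CPM in iWAT ko 1 (other iWAT libraries 4.32 to 8.57 CPM), and the 9 epididymis markers to 5093 CPM in eWAT ko 3 (other eWAT libraries 0.21 to 34.8 CPM). Differences of the members that rest on these libraries are given with and without them. Without them, iWAT keeps wt 1, wt 2 and, as its only knockout library, ko 3.

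Ucp1 was the transcript of brown fat. In iBAT, the wild type libraries held 6665, 5344 and 3978 CPM and the knockout libraries 7994, 5660 and 3422 CPM, with a mean of 5510 ± 1689 CPM (SD, n = 6). Ucp1 alone took between 0.248% and 0.493% of all counts of an iBAT library. In iWAT it was low and uneven: 2.70, 55.3 and 0.0989 CPM in wild type and 3.21, 16.5 and 18.5 CPM in knockout animals. The lowest of these values, in iWAT wt 3, rests on 3 counts and the highest, in iWAT wt 2, on 1600 counts. In eWAT, Ucp1 was near the limit of detection, with 15, 0 and 1 counts in wild type and 0, 6 and 27 counts in knockout libraries. For the libraries at 0 the limit, set at 3 counts, was 0.146 CPM in eWAT wt 2 and 0.129 CPM in eWAT ko 1. The iBAT libraries did not overlap with white fat, while iWAT wt 3 lay below 3 of the eWAT libraries.

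Ucp3 showed the same order of tissues with smaller steps. In iBAT it was at 176, 181 and 113 CPM in wild type and 160, 166 and 152 CPM in knockout libraries (158 ± 24.6 CPM, SD, n = 6). The iWAT values were 39.97, 41.2 and 8.41 CPM in wild type and 54.2, 29.7 and 49.2 CPM in knockout libraries. In eWAT, 11.5, 11.8 and 8.50 CPM were measured in wild type and 23.6, 13.5 and 2.67 CPM in knockout libraries. All iBAT libraries lay above all white fat libraries. Between the white tissues, the groups overlapped through iWAT wt 3, the library with the highest lymph node markers, which lay among the eWAT values. The lowest eWAT value came from eWAT ko 3, the library with the epididymis markers, and the highest iWAT value from iWAT ko 1, the library with the muscle markers. The part of the carried-along tissue in these values was not tested.

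Ucp2 ran the other way. The iBAT libraries were the lowest, at 47.3, 75.8 and 73.4 CPM in wild type and 47.7, 61.1 and 65.8 CPM in knockout animals (61.8 ± 12.3 CPM, SD, n = 6). In iWAT the wild type libraries held 87.3, 87.1 and 350 CPM and the knockout libraries 132, 231 and 116 CPM. The eWAT libraries were even, at 163, 149 and 131 CPM in wild type and 193, 150 and 99.4 CPM in knockout animals. No iBAT library reached the lowest white fat library, whereas the ranges of iWAT and eWAT overlapped. The 2 highest Ucp2 values of all 18 libraries were those of iWAT wt 3 and iWAT ko 2, the 2 libraries with the lymph node markers. Without them, iWAT held 106 ± 22.1 CPM (SD, n = 4) in place of 167 ± 104 CPM (SD, n = 6).

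**Figure D1:**
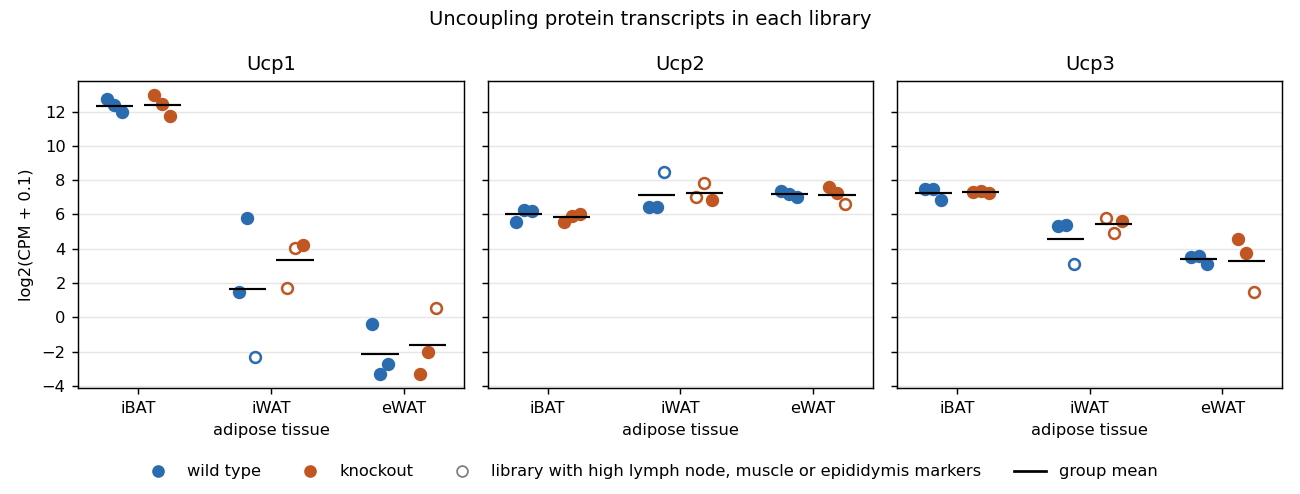
Level of Ucp1, Ucp2 and Ucp3 as log2(CPM + 0.1) in each of the 18 libraries, by tissue, with wild type in blue, knockout in orange, group means as lines, and open circles for the 4 libraries with lymph node, muscle or epididymis markers. Ucp1 and Ucp3 are highest in iBAT and lowest in eWAT, Ucp2 is lowest in iBAT, and the open circles of iWAT wt 3 hold the lowest Ucp1 and Ucp3 and the highest Ucp2 of iWAT.

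Levels of different genes can be compared only per length. With CPM divided by the merged exon length in kb, Ucp1 stood at 3368 ± 1032 CPM per kb in iBAT (SD, n = 6), Ucp3 at 50.4 ± 7.86 and Ucp2 at 8.85 ± 1.76 CPM per kb. Ucp1 made up 97.3% to 98.8% of the summed level of the 3 genes in the iBAT libraries. In eWAT, Ucp2 led in 6 of 6 libraries and took 78.6% to 89.5% of the sum. In iWAT the make-up differed between animals, with a Ucp1 share between 0.115% and 56.9% and a Ucp2 share between 20.98% and 94.8%. By the longest transcript within the RefSeq gene span, these shares were 0.0272% to 32.1% and 51.9% to 98.4%, so that Ucp2 then held the majority in 6 of 6 iWAT libraries. The order of Ucp2 and Ucp3 in iWAT depended on the length used, because the annotated exons of Ucp2 merge to 6989 bp while its longest transcript within the RefSeq gene span has 1597 bp. By merged exons Ucp2 exceeded Ucp3 in 4 of 6 iWAT libraries, and by the RefSeq span in 6 of 6. By either length Ucp3 exceeded Ucp2 in 6 of 6 iBAT libraries, but by the RefSeq span the ratio fell to between 1.001 and 2.43. The Ucp1 share in iBAT was still 95.3% to 98.1% by the RefSeq span.

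**Figure D2:**
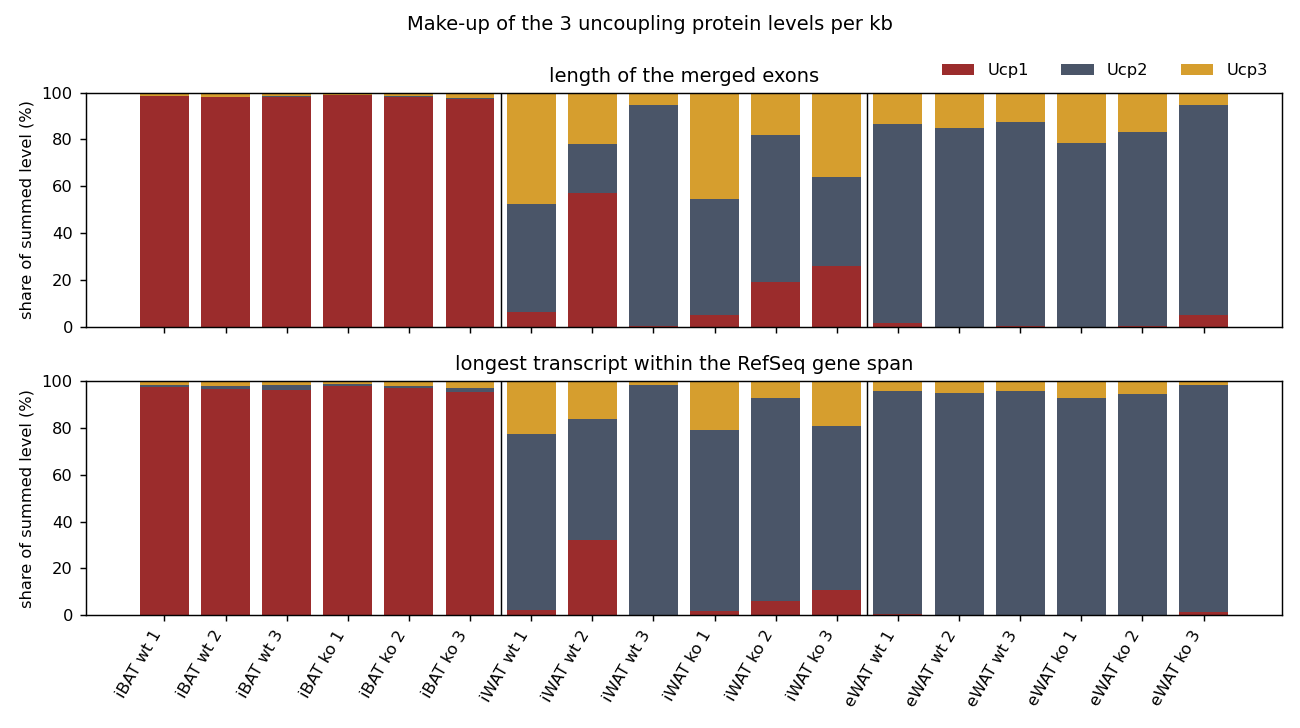
Share of Ucp1, Ucp2 and Ucp3 (percent, stacked bars) in their summed CPM per kb in each library, by the merged exon length in the upper panel and by the longest transcript within the RefSeq gene span in the lower panel. Ucp1 fills over 95% of every iBAT bar, Ucp2 is the largest part of every eWAT bar, and the iWAT bars differ from animal to animal.

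The contrasts between tissues asked where each member was higher, in a fit over all 18 libraries with tissue and genotype as terms. All 3 members were called between iBAT and iWAT and between iBAT and eWAT, where 54.3% and 54.6% of the genes tested were called. By direction, 24.0% of the genes were higher and 30.3% lower in iBAT than in iWAT, and 24.4% were higher and 30.2% lower than in eWAT, so a call in either direction was common. Ucp1 was higher in iBAT than in iWAT by a log2 fold change of 8.43 ± 1.14 (SE, edgeR adjusted p = 1.11e-05). The size was less certain than the direction, since it was 9.83 without mouse wt 2, whose iWAT library held the most Ucp1, 9.53 with the mouse as a block and 7.80 without the 4 libraries that carried other tissue. Against eWAT the log2 fold change was 13.93 ± 1.43 (edgeR adjusted p = 3.95e-07), and 15.06 without mouse ko 3, whose eWAT library held the most Ucp1. With 3 of the 6 eWAT libraries at or under 3 counts, its size depends on the prior count of the fit. In bulk tissue, fewer cells of a type and less RNA per cell cannot be told apart.

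Ucp3 was higher in iBAT than in iWAT by a log2 fold change of 2.12 ± 0.41 (edgeR adjusted p = 3.37e-04) and higher than in eWAT by 3.74 ± 0.44 (edgeR adjusted p = 1.73e-06), or 4.34-fold and 13.4-fold. Ucp2 was lower in iBAT than in iWAT, with a log2 fold change of -1.43 ± 0.31 (edgeR adjusted p = 8.44e-04), and lower than in eWAT, with -1.26 ± 0.31 (edgeR adjusted p = 0.00224). These 2 comparisons share the iBAT libraries. Leaving out the 2 lymph node libraries brought the Ucp2 difference between iBAT and iWAT to -0.77 ± 0.19 (edgeR adjusted p = 0.00386), and with the wild type libraries alone neither Ucp2 difference passed the threshold (adjusted p = 0.0596 against iWAT and 0.106 against eWAT). The direction of all 6 differences was the same in each of the 6 mice, in which Ucp1 and Ucp3 were highest and Ucp2 lowest in iBAT. A two-sided exact sign-flip test over the mice gave p = 0.03125 for each of them, the smallest that 6 mice can give, and 0.0402 after adjustment over 9 tests.

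Between the white tissues, 10.2% of the genes tested were called, 5.7% higher and 4.5% lower in iWAT, and Ucp1 and Ucp3 were among them. Ucp1 was higher in iWAT than in eWAT by a log2 fold change of 5.501 ± 1.13 (edgeR adjusted p = 0.00566) and Ucp3 by 1.62 ± 0.40 (edgeR adjusted p = 0.0184), which is 3.08-fold. Neither call was firm. Both were lost with the wild type libraries alone (adjusted p = 0.211 and 0.242), with only the white fat libraries in the fit (0.0609 and 0.0828) and with the mice of replicates 1 and 3 alone (0.258 and 0.2496). Ucp3 also lost its call without wt replicate 1 (0.0686), wt replicate 2 (0.0798) or ko replicate 2 (0.06996). Without the mouse wt 2, whose iWAT library held the most Ucp1, the Ucp1 difference was 4.02 (adjusted p = 0.0494). Without the 4 libraries that carried other tissue, iWAT keeps wt 1, wt 2 and ko 3 alone. Both differences were then called by edgeR, at 7.13 ± 0.93 (adjusted p = 0.000305) for Ucp1 and 1.71 ± 0.22 (adjusted p = 0.000245) for Ucp3. Within mice, Ucp1 was higher in iWAT in 6 of 6 animals (exact sign-flip p = 0.03125, adjusted p = 0.0402) and Ucp3 in 5 of 6 (exact sign-flip p = 0.0625, adjusted p = 0.0703). For Ucp1 the pair of mouse wt 3, with 3 counts in iWAT and 1 in eWAT, was at the floor of 3 counts, so its direction was not measured, and an exact test of the other 5 pairs could not go below 0.0625.

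Ucp2 did not pass the test between iWAT and eWAT, with a log2 fold change of 0.18 ± 0.30 (edgeR adjusted p = 0.762), and it was higher in iWAT in 3 of 6 mice. This result turned with the libraries. Without the 4 libraries that carried other tissue, Ucp2 was lower in iWAT than in eWAT, with -0.70 ± 0.18 (adjusted p = 0.0236), and without the 2 lymph node libraries alone the value was -0.49 ± 0.19 (adjusted p = 0.143). Without the mouse wt 3 it was -0.24 (adjusted p = 0.635).

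**Figure D3:**
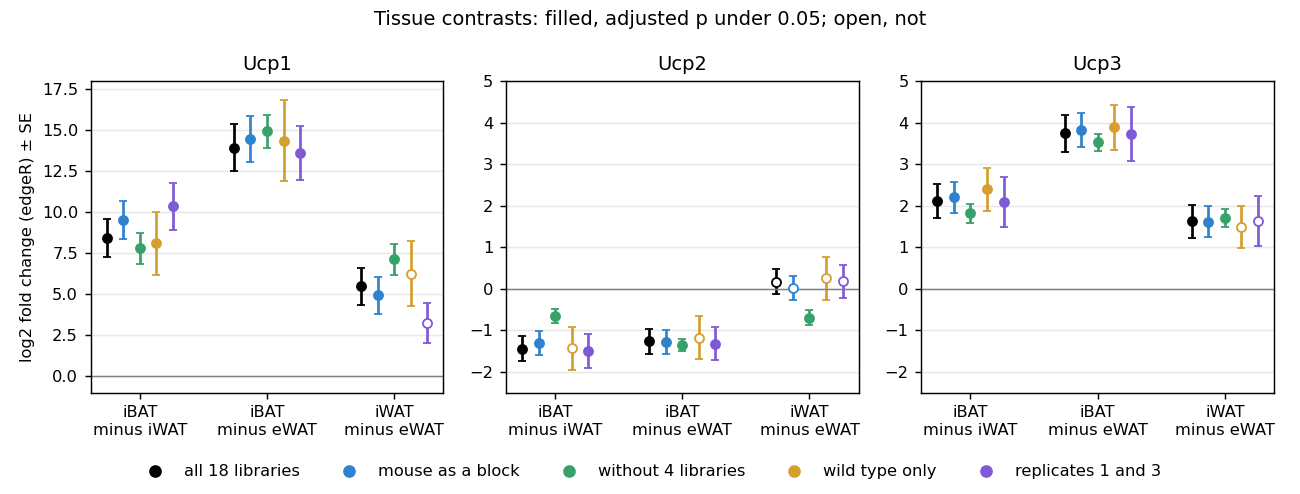
Log2 fold change with its standard error for the 3 tissue contrasts of each member in the fit over all 18 libraries, with the mouse as a block, without the 4 libraries, with wild type libraries only and with replicates 1 and 3 only. Filled points passed an adjusted p of 0.05, and the vertical scale of Ucp1 differs from the others. The Ucp2 difference between iWAT and eWAT lies at 0.18 with all libraries and at -0.70 without the 4.

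Macrophage markers differed between brown and white fat in the direction of Ucp2. The 10 macrophage markers, which include Adgre1 and Csf1r, were lower in iBAT than in iWAT and than in eWAT in 10 of 10 cases each. Over all genes tested, 30.3% and 30.2% were lower. The median log2 fold changes of the markers were -2.86 and -2.02, against -0.14 and -0.17 over all genes. Their summed level was 72.0 to 181 CPM in iBAT, 315 to 1855 CPM in iWAT and 181 to 658 CPM in eWAT. It was highest in iWAT wt 3 (1855 CPM) and iWAT ko 2 (1812 CPM), the 2 libraries with the highest Ucp2. In the other 4 iWAT libraries it ran from 315 to 730 CPM beside Ucp2 levels of 87.1 to 132 CPM. Without the 4 libraries, 10 of 10 macrophage markers were still lower in iBAT in both comparisons. Between iWAT and eWAT 0 of 10 then differed by edgeR, where 5.7% of all genes tested were higher and 4.5% lower. The lymphocyte and lymph node markers were lower in iBAT in 10 of 10 cases against iWAT and in 0 of 10 against eWAT by edgeR. The shares of all genes were again 30.3% and 30.2%. Without the 4 libraries, 4 of 10 were lower against each, where 24.6% of all genes tested were lower than in iWAT and 31.4% lower than in eWAT. The part of macrophages and lymphoid cells in the Ucp2 level was not tested.

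The library with the lowest Ucp3 of each tissue also had the lowest sum of the brown adipocyte genes. The 12 brown adipocyte genes, among them Cidea, Cpt1b and Otop1, were all higher in iBAT than in iWAT and in eWAT, as were 24.0% and 24.4% of all genes tested. Within iWAT, their summed level was lowest in iWAT wt 3 (98.6 CPM), where Ucp3 was at 8.41 CPM and Ucp1 at 0.0989 CPM. Within eWAT it was lowest in eWAT ko 3 (50.9 CPM), where Ucp3 was at 2.67 CPM. These libraries also had the lowest sums of the common adipocyte genes in their tissue. They were 18727 CPM in iWAT wt 3 and 18705 CPM in eWAT ko 3, against 23987 to 46595 CPM and 28198 to 45351 CPM in the others. In iBAT it was the other way, since iBAT wt 3, with the lowest Ucp3, had the highest such sum (25275 CPM, others 19407 to 24710 CPM). Ucp1 did not share the low value in eWAT ko 3, which held the most Ucp1 of any eWAT library at 1.34 CPM.

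**Figure D4:**
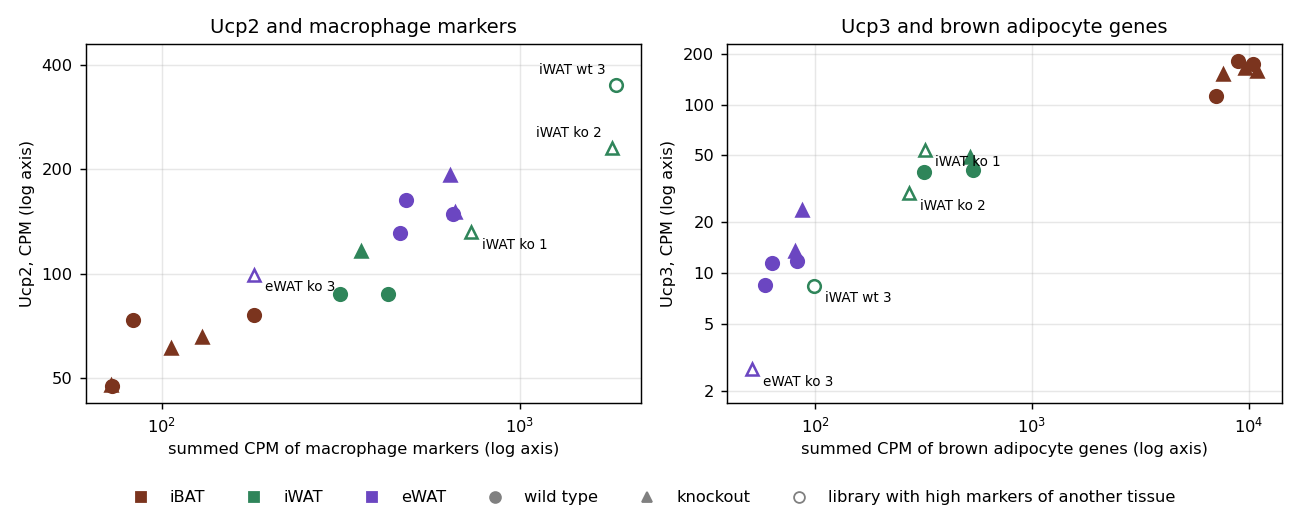
Left, Ucp2 CPM against the summed CPM of 10 macrophage markers, and right, Ucp3 CPM against the summed CPM of 12 brown adipocyte genes, both on log axes, with 1 point per library, colours for tissues, circles for wild type and triangles for knockout. The open points of iWAT wt 3 and iWAT ko 2 hold the highest values of both measures on the left, and eWAT ko 3 holds the lowest of both on the right.

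The knockout of Gm15551 was compared with wild type to ask whether its loss changes the uncoupling proteins. None of the 3 members passed the test across tissues, within any tissue or in the joint test of a difference between tissues by edgeR, and their unadjusted edgeR p ran from 0.341 to 0.997 outside the joint test. Across all genes, 0.00534% were called across tissues and in eWAT, which was Gm15551 itself. In iBAT, in iWAT and in the joint test 0.0% were called. There, in that order, 238, 415 and 264 genes had an unadjusted edgeR p under 0.05 and DESeq2 called 13, 4 and 0 genes. Even the deleted Gm15551 was not called in iBAT (log2 fold change -9.16, edgeR adjusted p = 0.191) or in iWAT (-7.58, edgeR adjusted p = 0.0551). The lack of a call for the members in these tissues therefore says little. Across tissues, the log2 fold change of knockout against wild type was -0.09 ± 0.77 for Ucp1, -0.10 ± 0.25 for Ucp2 and 0.31 ± 0.32 for Ucp3 (SE, edgeR adjusted p = 0.9999 for each). With the counts of the tissues summed per mouse, the values were -0.12 ± 0.33, -0.11 ± 0.35 and 0.07 ± 0.28, again without a call.

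The precision differed between tissues and members. In iBAT, where counts were high, the log2 fold changes were 0.10 ± 1.24 for Ucp1, -0.17 ± 0.45 for Ucp2 and 0.02 ± 0.58 for Ucp3. These errors use the spread of all 18 libraries, and with the iBAT libraries alone they fell to 0.30, 0.21 and 0.17 with no call. In iWAT the values were -0.60 ± 1.26, -0.13 ± 0.45 and 0.57 ± 0.58 for Ucp1, Ucp2 and Ucp3, and in eWAT 0.82 ± 2.03, 0.00 ± 0.45 and 0.32 ± 0.59. Wild type and knockout libraries overlapped for each member in each tissue. Single libraries carried the white fat values. Without iWAT wt 2 the Ucp1 difference in iWAT was 3.18, without iWAT wt 3 the Ucp2 difference in iWAT was 0.87, and neither passed after adjustment over all genes (edgeR adjusted p = 1 and 0.923). Without the 4 libraries, Ucp3 in eWAT was at 0.80 ± 0.25 with an unadjusted edgeR p of 0.00738 and an adjusted p of 1. Exact permutation tests of 3 against 3 animals, which cannot go below 0.1, gave p of 0.5 to 1 for the members within tissues. In iWAT the mean difference on that log2 scale had the opposite sign to the fit, at 1.68 for Ucp1 and 0.14 for Ucp2, and for Ucp3 in eWAT it was -0.14.

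**Figure D5:**
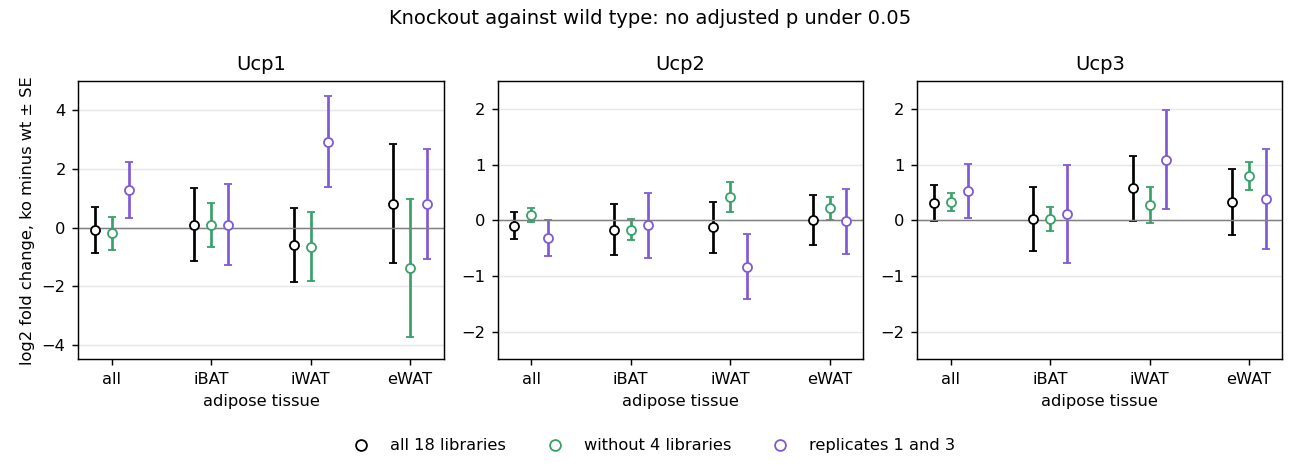
Log2 fold change of knockout against wild type with its standard error, across tissues and within each tissue, with all 18 libraries, without the 4 libraries and with replicates 1 and 3 only. All points are open, since none passed an adjusted p of 0.05, and the vertical scale of Ucp1 is wider than that of Ucp2 and Ucp3.

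Within a tissue, the members were also compared with each other over the 6 animals, in 9 relations of log2(CPM + 0.1). None passed after adjustment by an exact permutation test. The closest was Ucp2 with Ucp3 in eWAT (Pearson r = 0.97, exact permutation p = 0.00694, adjusted p = 0.0625; Spearman rho = 0.83, exact permutation p = 0.0583, adjusted p = 0.483), and r was 0.74 without the 2 libraries farthest from the median of Ucp2. In iWAT the same pair had r = -0.83 (exact permutation p = 0.0347, adjusted p = 0.156), with a rho of -0.49 (p = 0.356, adjusted p = 0.488). That relation rested on the lymph node libraries, since r was 0.996 in the other 4. In iBAT, Ucp1 and Ucp2 had r = -0.75 (exact permutation p = 0.0944, adjusted p = 0.212) and a rho of -0.71 (p = 0.136, adjusted p = 0.483), with r = -0.79 without the 2 farthest libraries.

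Other carriers of the SLC25 family that resemble the uncoupling proteins did not share 1 pattern. Of 8 listed, 7 were tested, and 3 were higher and 2 lower in iBAT than in iWAT, with the same split against eWAT. Over all genes tested, 24.0% were higher and 30.3% lower than in iWAT. Slc25a11, the oxoglutarate carrier, rose in iBAT by a log2 fold change of 1.53 ± 0.10 over iWAT (edgeR adjusted p = 4.94e-09), and the ADP/ATP carriers Slc25a4 and Slc25a5 rose by 1.41 and 1.13. Slc25a10, the dicarboxylate carrier, was lower in iBAT by -3.15 ± 0.26 (edgeR adjusted p = 5.65e-08), and Slc25a30 by -0.68. Slc25a27 and Slc25a14, also named Ucp4 and Ucp5, stood at -0.43 and -0.34 and did not pass the test (edgeR adjusted p = 0.116 and 0.128). Between iWAT and eWAT, 0 of the 7 were called by edgeR, where 10.2% of all genes tested were. Without the 4 libraries that carried other tissue, 1 was higher and 1 lower, beside 5.7% and 4.5% of all genes.

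Of 15 genes of adrenergic signalling to Ucp1, 8 were higher in iBAT than in iWAT and 0 lower, and 9 were higher and 1 lower than in eWAT, where 24.0% and 24.4% of all genes tested were higher and 30.3% and 30.2% lower. Without the 4 libraries that carried other tissue, 8 were higher and 1 lower than in iWAT and 8 and 2 than in eWAT. The β1-adrenoceptor Adrb1 was higher in iBAT by 2.69 ± 0.31 over iWAT, the stimulatory G protein Gnas by 2.42 ± 0.16 and the adenylyl cyclase Adcy3 by 2.76 ± 0.29. The largest difference was that of Plin5, a lipid droplet protein, at 3.91 ± 0.34. The β3-adrenoceptor Adrb3 was lower in iBAT than in eWAT by -1.20 ± 0.27 (edgeR adjusted p = 0.00113), and at -0.35 against iWAT (edgeR adjusted p = 0.280). Of these genes, 1 was higher and 1 lower in iWAT than in eWAT, against 4 and 0 without the 4 libraries, and 5.7% and 4.5% of all genes tested.

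Among 21 regulators of Ucp1 transcription, 12 were higher and 3 lower in iBAT, against iWAT as well as against eWAT, beside the same 24.0% and 24.4% higher and 30.3% and 30.2% lower over all genes. These counts were 11 and 2 against iWAT and 13 and 3 against eWAT without the 4 libraries. The coactivators Ppargc1a and Ppargc1b, which drive mitochondrial biogenesis, were higher than in iWAT by 3.34 ± 0.54 and 3.76 ± 0.28, and the nuclear receptor Esrrg by 3.87 ± 0.70. Those lower than in iWAT were the corepressor Nrip1 (-2.22 ± 0.22), the retinoid receptor Rxra (-0.79 ± 0.19) and Creb1 (-0.35 ± 0.11), of which Creb1 lost its call without the 4 libraries (-0.18 ± 0.09, edgeR adjusted p = 0.127). Against eWAT, Nrip1 (-2.84), Rxra (-1.12) and Zfp516 (-0.82) were lower. Prdm16 (1.18 ± 0.31) and Irf4 (1.80 ± 0.37) were the 2 regulators higher in iWAT than in eWAT. Of 13 PPAR and fatty acid oxidation genes, 9 exceeded iWAT and 9 exceeded eWAT in brown fat, led by Pdk4 at 4.37 ± 0.53 over iWAT. Between the white tissues 5 of the 13 were higher in iWAT (8 without the 4 libraries, and 5.7% of all genes tested), as were 8 of the 12 brown adipocyte genes, the largest being Otop1 (6.35 ± 0.69), Cidea (5.12 ± 0.57), Cox8b (4.25 ± 0.50) and Elovl3 (3.99 ± 1.04). Between knockout and wild type, 0 genes of these lists were called across tissues by edgeR.

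The genes next to the members did not follow them as a block. Protein-coding genes within 100000 bp of Ucp1 are Tbc1d9, Elmod2, Mgat4d and Clgn, of which the latter pair was below the filter. Elmod2 was higher in iBAT than in eWAT by 0.48 ± 0.12 (edgeR adjusted p = 0.00385), and Tbc1d9 was not called in any tissue contrast. C2cd3, which lies 2837 bp from Ucp3, and Coa4 were not called either. Mrpl48, a subunit of the mitochondrial ribosome, was higher in iBAT than in iWAT by 1.21 ± 0.09 (edgeR adjusted p = 2.34e-08), the direction of Ucp3. Dnajb13, on the minus strand, was lower by -1.67 ± 0.38 (edgeR adjusted p = 0.00131), the direction of Ucp2, with which it shares 305 bp. Whether counting used strand is not given in the sources used here, so reads of the shared stretch cannot be told apart.

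Genes with the pattern most like each member were ranked by Pearson r of log2(CPM + 0.1) over the 18 libraries among 18727 others. These r describe libraries that share tissue, animal and depth, so they carry no p. For Ucp1 they were Ppp1r3b (0.99), Lman1 (0.98), Gm35986 (0.98), Acot11 (0.98) and Adprhl1 (0.98). For Ucp2 they were Slamf9 (0.97), Cyba (0.97), Lbr (0.97), Irf5 (0.96) and Laptm5 (0.96), and for Ucp3 they were Tspan18 (0.98), Zdhhc2 (0.98), Fasn (0.98), Dis3l (0.98) and Gpd1 (0.98). Ucp3 stood at r = 0.88 with Ucp1, while Ucp2 had negative values with Ucp1 (-0.82) and Ucp3 (-0.71).

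After the mean of each tissue and genotype group was subtracted, the leading genes changed. Slc35f5 (0.89), Ppp1r3b (0.86), Hlf (0.84), Prepl (0.82) and Ctbp2 (0.81) led for Ucp1, so Ppp1r3b, a glycogen-targeting subunit of protein phosphatase 1, was in both sets. Relt, Itgb7, Hcls1, Atp2a3 and AI467606 led for Ucp2 with r of 0.96 to 0.97. The highest Ucp2 values came from the lymph node libraries iWAT wt 3 and iWAT ko 2, whose part in these r was not tested. Dmtn, Sfxn5, Unc5a and Jam2 were among the leading genes for Ucp3 with 0.97 to 0.99. Within groups, the r of Ucp1 with Ucp2 was -0.66, that of Ucp1 with Ucp3 0.12 and that of Ucp2 with Ucp3 -0.32. These values pool tissues that differed. In iBAT, iWAT and eWAT, Ucp2 with Ucp3 had r of -0.37, -0.83 and 0.97, and 0.996 in iWAT without the lymph node libraries. Ucp1 with Ucp3 had 0.54, 0.74 and -0.74. Ucp1 with Ucp2 had -0.75, -0.62 and -0.61, but 0.59 in iWAT without the 2 libraries farthest from the median of Ucp1.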

How the data were processed

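Polyadenylated RNA of 18 libraries was sequenced. The authors filtered reads with cutadapt, quantified them with salmon against GENCODE M22 (GRCm38) or its combination with RNAcentral, and deposited 1 estimated count per gene and library, rounded to a whole number and not normalised. The reference, the strand setting and the step to genes are not given in the sources used here. Groups and replicates were taken from the titles. The mouse identifiers show that a number marks 1 animal per genotype across tissues, and same-mouse libraries had correlated deviations (median r = 0.173, -0.090 to 0.542). Replicate 2 mice carry another identifier prefix of unstated meaning. No 2 replicates agreed within sampling noise (chi-square per gene of at least 20.7).

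The main test was edgeR's quasi-likelihood test (version 4.0.16, R 4.3.3) after filterByExpr by group and TMM scaling, with Benjamini-Hochberg adjustment over 18728 genes and a threshold of 0.05. Tissue contrasts and the overall genotype effect came from an additive model, and within-tissue effects and interactions from 1 mean per group. Standard errors were obtained from the F statistic and the log2 fold change. These fits treat the 18 libraries of 6 mice as independent, so their p-values measure the spread between libraries, and for the genotype effect across tissues each mouse enters 3 times. DESeq2 1.42.0 and limma 3.58.1 were alternatives. The model was run on simulated counts of independent libraries with a fixed dispersion and no mouse effect. That does not cover shared animals or the wide spread of Ucp1 in white fat. Single genes were compared by exact permutation tests on log2(CPM + 0.1). A floor of 3 counts was 0.0728 to 0.235 CPM and covers counting error only. Positions and lengths are from GENCODE M21 and promoters from RefSeq, where all 3 members were matched.

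The members and gene lists were chosen with earlier results of these data known. Genes named were the members, Gm15551, protein-coding genes within 100000 bp, called list members with the largest changes or against the majority, and the 5 genes most like each member on either scale. Some genes that this rule names are not reported here. Slc25a4, Slc25a5, Slc25a14, Slc25a27, Slc25a30 and Tbc1d9 are named as well to account for their groups. For skeletal muscle markers 5 of 11 tested were lower in iBAT than in iWAT (1 of 12 without the 4 libraries that carried other tissue), and for epididymis markers 0 of 1 (0 of 6). The lymphocyte and lymph node markers were lower in 10 of 10 (4 of 10) and common adipocyte genes in 5 of 8 (6 of 8), beside 30.3% (24.6%) of all genes.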

Additional observations from a re-analysis of the deposited data

Results flagged for a closer look

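With 6 libraries per tissue, the highest and lowest value of each member was compared on the log2(CPM + 0.1) scale with the 95% critical value of Dixon's test in 9 groups, of which chance alone flags about 1 in 20. On this scale the lowest library stood apart in 2 groups, both times for Ucp3, with a gap of 0.632 and 0.677 of the range. On the CPM scale these gaps were 0.576 and 0.465, under the critical value, and the 1 value past it was Ucp1 in iWAT wt replicate 2 (55.3 CPM, gap 0.666 of the range). In iBAT, wt replicate 3 held 113 CPM of Ucp3, where the other 5 libraries held 152 to 181 CPM. The same library had the highest skeletal muscle sum of iBAT (27.2 CPM, others 2.48 to 9.32 CPM) and the lowest brown adipocyte sum (7101 CPM). In iWAT, wt replicate 3 held 8.41 CPM of Ucp3, where the other 5 libraries held 29.7 to 54.2 CPM. This is the library with the highest lymph node markers and the lowest brown adipocyte sum of iWAT. Both libraries come from 1 mouse, whose eWAT library held 8.50 CPM, above the 2.67 CPM of eWAT ko replicate 3. The part of other tissue in these values was not tested.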

How the results depend on the processing

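The 6 differences between iBAT and a white tissue kept their direction under each alternative run, and those of Ucp1 and Ucp3 kept their call as well. With wild type libraries only, the Ucp2 differences were -1.43 against iWAT and -1.18 against eWAT without a call. Between iWAT and eWAT, Ucp1 and Ucp3 lost their call with wild type libraries only (6.26 and 1.49), with 2 tissues in the fit (5.45 and 1.61) and with replicates 1 and 3 only (3.25 and 1.64), and Ucp2 turned without the 4 libraries (-0.70) and without the lymph node libraries (-0.49). The cause was not tested. With the mouse as a replicate block, as the shared animals allow, no call of a tissue contrast changed (Ucp1 9.53, 14.47 and 4.94 for iBAT against iWAT, iBAT against eWAT and iWAT against eWAT). Leaving out each mouse gave 8.07 to 9.83, 13.55 to 15.06 and 4.02 to 6.40 for Ucp1, -1.61 to -1.10, -1.37 to -1.10 and -0.24 to 0.33 for Ucp2, and 1.96 to 2.23, 3.58 to 4.03 and 1.35 to 1.80 for Ucp3.

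No alternative gave a genotype call for a member, and directions near 0 turned. Across tissues, Ucp1 was at 0.12 without the muscle library, 0.11 with the replicate number as a replicate block, 1.28 with replicates 1 and 3 only, 1.14 with the mouse as a random effect in limma and 0.17 by DESeq2, and Ucp2 at 0.0875 without the 4 libraries and 0.0617 without the lymph node libraries. Nothing in the labels ties wild type and knockout animals of 1 number together beyond the number and the identifier prefix that sets replicate 2 apart. Their deviations were correlated at a median r of 0.104 (-0.559 to 0.743). In iWAT, Ucp1 was at 2.93 with replicates 1 and 3 only. Ucp2 in iWAT was at 0.41 without the 4 libraries, where ko 3 is the only knockout library left, and at 0.51 without the lymph node libraries. In eWAT, Ucp1 was at -1.39 without the 4 libraries and -1.41 without the epididymis library, and Ucp2 at 0.21 in both cases, 0.0122 with the size factors of DESeq2, 0.0121 by DESeq2, 0.0023 without a filter and 0.0203 with the replicate block. Leaving out 1 mouse gave -0.50 to 1.14 (Ucp1), -0.25 to 0.22 (Ucp2) and 0.03 to 0.46 (Ucp3) across tissues. Leaving out 1 library gave -0.24 to 0.35, -0.36 to -0.05 and -0.17 to 0.14 in iBAT, -1.19 to 3.18, -0.49 to 0.87 and 0.13 to 0.87 in iWAT, and -1.41 to 3.88, -0.25 to 0.21 and -0.37 to 0.80 in eWAT for Ucp1, Ucp2 and Ucp3. With eWAT alone in the fit, Ucp1 was below the filter.

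The number of genes called between iWAT and eWAT moved from 1911 to 854 with 2 tissues, 247 with wild type libraries only, 211 with replicates 1 and 3 only and 750 to 1595 without 1 mouse. With wild type libraries only, it was 6595 for iBAT against iWAT (10164 in all libraries) and 6574 for iBAT against eWAT (10220). Genotype calls numbered 4 across tissues, 13 in iBAT, 4 in iWAT and 13 in eWAT by DESeq2, and 3 across tissues with the replicate block and 0 with counts summed per mouse. Without the 4 libraries they were 1 in iBAT, 11 in iWAT and 2 in the joint test. In iWAT 1 gene was called without a filter or without the epididymis library and 0 to 1 without 1 library, and in eWAT 0 without 1 library, with 1 tissue, with the replicate block, with replicates 1 and 3 only and without the epididymis or muscle library. Per kb of the longest transcript, Ucp2 stood at 15.5, 41.9 and 37.0 in iBAT, iWAT and eWAT and Ucp3 at 64.5 in iBAT. By the RefSeq span, Ucp2 stood at 38.7, 104.6 and 92.5, and Ucp3 again at 64.5. A pseudocount of 1 changed no call among the 21 exact tests and 9 relations. Lymph node markers higher in iWAT than in eWAT fell from 10 of 10 to 0 without the 4 libraries.

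In eWAT, where Ucp1 held 0 to 27 counts per library, depth limits its values. Alternatives without lymph node, muscle or epididymis libraries singly, and replicates 1 and 3 for the tissue contrasts, were chosen after seeing the data.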
